A study of Homo sapiens with 12 samples.

Results

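The balance between 5-hydroxymethylcytosine (5hmC) and 5-methylcytosine (5mC) was examined in differentiated HL-60 cells. HL-60 is an established human line of promyelocytic leukemia cells, which dimethyl sulfoxide (DMSO) drives along the neutrophil path. The differentiated cells had received 1.5% DMSO (211 mM) for 7 days, and living cells that stained for CD11b were collected. CD11b is the product of ITGAM and marks maturing myeloid cells. The untreated cells, used here only for comparison, were collected as living cells without CD11b. The line is a single leukemia culture, and the sort means that each group stands for the collected fraction alone. Each state had 3 biological replicates, whose sheared DNA was divided between an antibody against 5mC and an antibody against 5hmC. Of the 12 libraries, the 6 differentiated ones were used, 3 per mark. A paired locus was defined as a cluster of 5hmC and 5mC regions that overlapped by at least 1 base. The deposited tables gave 43990 such loci, which held 46865 of 327931 5hmC regions (14.3%) and 44416 of 65535 5mC regions (67.8%).

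5mC is the methyl mark that DNA methyltransferases place on cytosines, mostly at CpG dinucleotides. TET enzymes oxidize it to 5hmC, and further oxidation and repair can return the base to plain cytosine. In many tissues 5hmC is known from gene bodies and enhancers, while active CpG islands carry little of either mark and satellite repeats are rich in 5mC. The 5hmC:5mC ratio of a locus therefore sets one mark against the substrate from which it is made. Antibody capture counts pulled-down fragments and gives no percentage of modified cytosines.

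Of the 1467 genes with a paired locus within 1 kb upstream of or over their start, 931 (63.5%) had a promoter sequence in RefSeq (GRCh38.p14). A check of CpG content over promoters is therefore void, since fewer genes than needed had a sequence. The 4 sequences show the promoters at the ends of the ratio range among 172 candidate genes whose start was covered by a called island locus. They are the 250 bases before the start of HIST1H4F (chromosome 6, 26240143 to 26240392, plus strand), HIST1H2AJ (chromosome 6, 27814778 to 27815027, minus strand), TEAD2 (chromosome 19, 49362417 to 49362666, minus strand) and HAPLN4 (chromosome 19, 19262805 to 19263054, minus strand). Each is written 5′ to 3′ on the strand of the gene, with every CG in capitals.
HIST1H4F: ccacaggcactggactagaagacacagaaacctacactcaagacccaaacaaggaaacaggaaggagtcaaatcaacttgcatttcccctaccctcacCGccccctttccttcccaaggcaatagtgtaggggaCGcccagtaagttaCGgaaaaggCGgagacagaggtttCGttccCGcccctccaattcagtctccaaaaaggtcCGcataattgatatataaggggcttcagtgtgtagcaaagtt
HIST1H2AJ: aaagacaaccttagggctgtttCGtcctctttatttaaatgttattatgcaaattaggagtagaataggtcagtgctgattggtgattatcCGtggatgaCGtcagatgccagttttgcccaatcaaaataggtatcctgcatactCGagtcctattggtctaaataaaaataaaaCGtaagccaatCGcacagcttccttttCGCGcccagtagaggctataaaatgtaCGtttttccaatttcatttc
TEAD2: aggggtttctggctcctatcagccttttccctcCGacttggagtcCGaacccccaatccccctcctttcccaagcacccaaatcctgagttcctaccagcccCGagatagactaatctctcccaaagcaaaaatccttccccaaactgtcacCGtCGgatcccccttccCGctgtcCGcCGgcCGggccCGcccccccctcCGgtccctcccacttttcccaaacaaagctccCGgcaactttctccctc
HAPLN4: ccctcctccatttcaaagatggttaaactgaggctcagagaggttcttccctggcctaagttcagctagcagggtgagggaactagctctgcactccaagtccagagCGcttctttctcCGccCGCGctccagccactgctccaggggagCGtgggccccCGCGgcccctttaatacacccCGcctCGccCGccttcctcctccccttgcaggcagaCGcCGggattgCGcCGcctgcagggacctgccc
HIST1H4F and HIST1H2AJ, genes of the core histones H4 and H2A, had the 2 lowest ratios of this set, and TEAD2, a gene of a Hippo pathway transcription factor, and HAPLN4, a gene of a brain matrix link protein, the 2 highest. The windows held 7, 9, 12 and 14 CG dinucleotides in that order, where the median of 27305 RefSeq promoters was 11 in windows of the same length and 93.6% held at least 1. At least as many as in these 4 were found in 58.4%, 53.8%, 48.3% and 44.7% of promoters, so all 4 lay near the median. At the HIST1H4F locus (chromosome 6, 26239401 to 26242800, hg19) 5hmC was 0.895, 0.922 and 0.646 CPM (counts scaled to the total of the library's table) and 5mC 36.6, 33 and 31.6 CPM in replicates 1, 2 and 3. At the TEAD2 locus (chromosome 19, 49865001 to 49868800) 5hmC was 10.3, 8.3 and 10.8 CPM and 5mC 3.13, 2.01 and 1.86 CPM. The CPM values of the 2 marks did not overlap at either locus, and they lay in opposite order. Both loci were chosen from the ends of the ratio range, so this order is no separate support. The listed regions also differed in width: 5hmC covered 400 and 5mC 3400 bases at HIST1H4F, against 3800 and 600 bases at TEAD2. Per kb covered, the mean log2 ratio was −2.12 at HIST1H4F and −0.61 at TEAD2; the difference between them was smaller on that scale.

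Across all paired loci the 5hmC level was lower than the 5mC level in these units. Each library was scaled to the total of its own table, and the ratio was taken as log2((5hmC CPM + 0.1)/(5mC CPM + 0.1)) within each replicate. Its median over loci was −1.26, −1.29 and −1.17 in replicates 1, 2 and 3 (mean −1.24 ± 0.0623, SD, n = 3), a linear ratio of 0.423. The middle 50% of loci lay between −1.91 and −0.60, and in 3833 loci (8.71%) 5hmC exceeded 5mC in all 3 replicates. Ratios of the same loci correlated at 0.886 to 0.907 between replicates (Pearson, across loci, which are not independent), and the median SD of a locus over replicates was 0.303. The totals were 18988574, 13010267 and 32495733 counts for 5hmC and 9598834, 7940755 and 9670011 for 5mC, and a locus held a median of 37.7 5hmC and 43.3 5mC counts per library. The 5mC table holds a list already selected for a difference between the states (largest p-value 0.0165 in the authors' deposited table). Its totals are not library depth, and a ratio of 1 has no meaning of its own. Every gene and locus was therefore tested against the median gene or locus, which lay at −1.40 and −1.27 on the log2 scale, and "higher" and "lower" are used in that sense. In edgeR (quasi-likelihood, Benjamini-Hochberg adjusted), 12908 of 43864 tested loci were higher (29.4%) and 13950 lower (31.8%).

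Loci in CpG islands, the CpG-dense stretches at many gene starts, had the lowest ratios of the classes. The 1176 island loci had a median log2 ratio of −1.89, −2.03 and −1.80 in replicates 1, 2 and 3, which was 0.62 to 0.73 under that of all loci in each replicate (mean difference −0.66 ± 0.0628, SD, n = 3). Of 1175 tested, 302 were higher (25.7%) and 698 lower (59.4%), against 29.4% and 31.8% of all loci. Shores, within 2 kb of an island, lay −0.26 ± 0.0246 from all loci, and shelves, at 2 to 4 kb, lay −0.15 ± 0.00331 from them. The 1415 loci within 1 kb upstream of or over a gene start, called promoters here, lay −0.31 ± 0.0438 from all loci. The 21033 gene-body loci lay −0.08 ± 0.00992 from them, and the 21541 intergenic loci 0.10 ± 0.00208. Before any account of width, island loci had mean medians of −1.82 in promoters (314 loci), −1.89 in gene bodies (476) and −2.03 between genes (386). In each of these classes the difference from all loci had the same sign in all 3 replicates.

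In island loci 5hmC covered a median of 1400 bases and 5mC 2200, while both covered 800 over all loci. Per kb covered, both marks were denser in islands than over all loci, with 3.28 ± 0.243 against 2.24 ± 0.123 CPM per kb for 5hmC and 8.68 ± 0.0949 against 5.55 ± 0.0858 for 5mC (SD, n = 3). The island difference then shrank to −0.12 ± 0.0516, to −0.21 ± 0.0422 in promoters, −0.04 ± 0.0719 in gene bodies and −0.16 ± 0.0484 between genes, beside −0.16 at shores, −0.09 at shelves and −0.15 at promoters. Gene bodies were at −0.05 and intergenic loci at 0.06 on this scale, so those signs held.

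**Figure D1:**
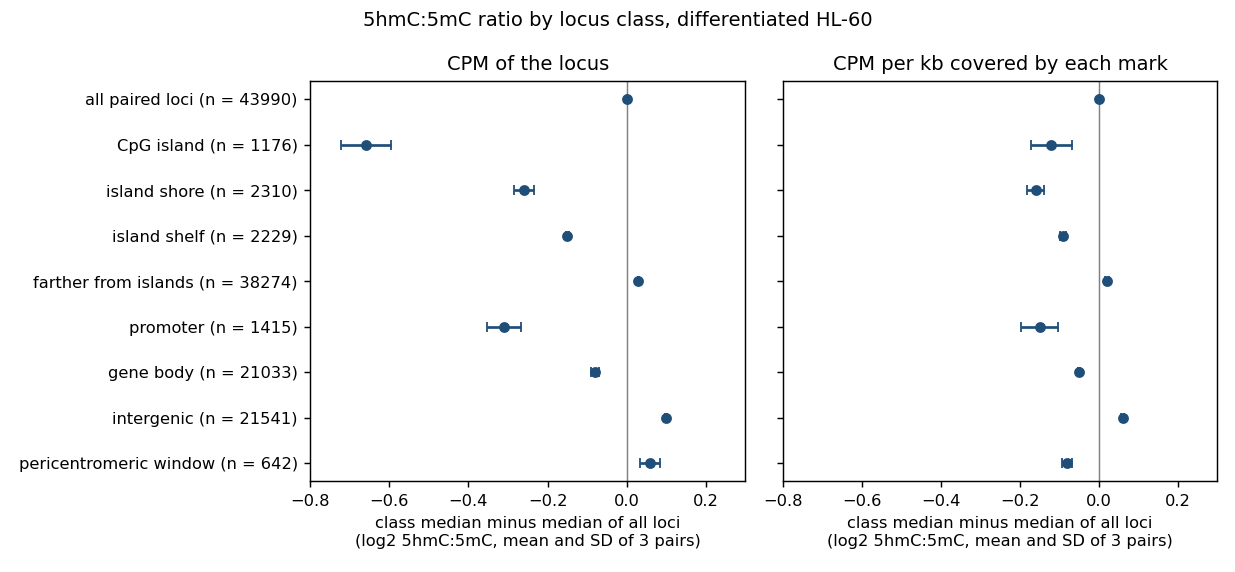
Difference between the median log2 5hmC:5mC ratio of each locus class and that of all paired loci (x axis) in differentiated HL-60, as mean and SD of 3 replicates, from CPM of the locus (left) and from CPM per kb covered by each mark (right). CpG islands lie at −0.66 on the left and −0.12 on the right, and pericentromeric windows change sign between the panels.

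The ratio was higher in the bins farthest from islands and gene starts than in the nearest ones. Loci more than 200 kb from an island (5040) had medians of −0.98, −0.96 and −0.90 in replicates 1, 2 and 3, and 39.9% of those tested were higher and 21.4% lower. Loci at 10 to 50 kb, the most frequent bin with 16670 loci, had a mean median of −1.30 ± 0.0652. Over the 9 bins the mean median rose from −1.90 on islands to −0.95, without a bin below its neighbour nearer to the island. For distance upstream of a gene start the 3179 loci beyond 500 kb had a mean median of −0.97 ± 0.0275, against −1.54 ± 0.101 for the 810 loci over a start. The 605 loci up to 1 kb upstream lay slightly lower, at −1.57 ± 0.115. Per kb covered there was no rise near islands: the mean median was −1.30 on islands and −1.33, −1.31 and −1.35 in the bins out to 2 kb. Per kb covered the farthest bins remained above all loci, by 0.16 ± 0.0336 for islands and 0.15 ± 0.0309 for gene starts. The deposited distance to a start is read as one upstream of it, so a locus just downstream of a start counts as gene body.

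**Figure D2:**
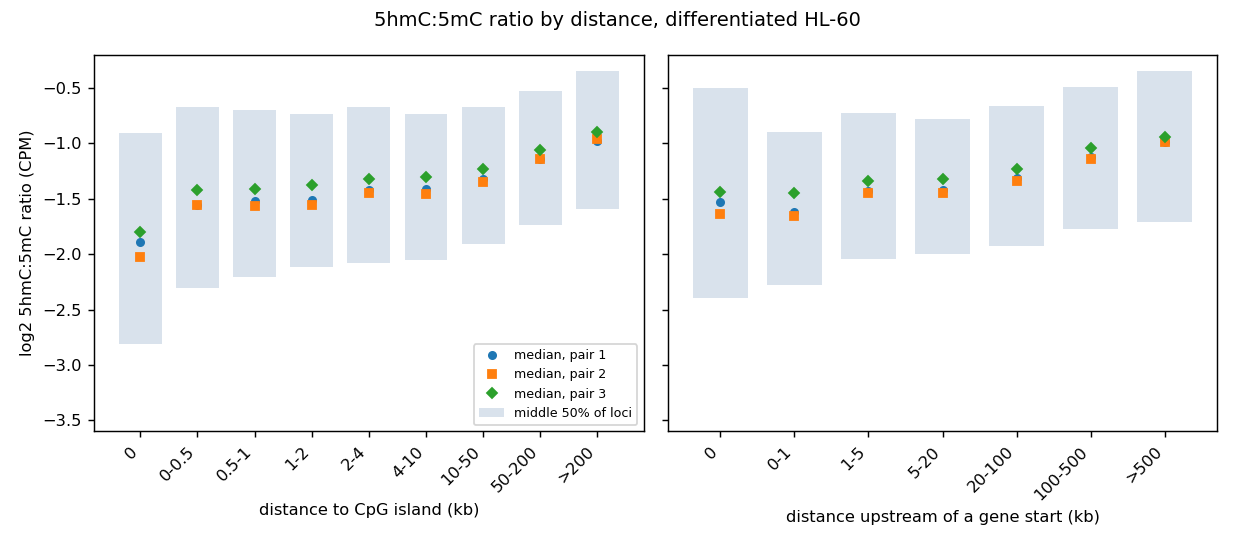
Log2 5hmC:5mC ratio (y axis) by distance to the nearest CpG island (left) and upstream of a gene start (right), in kb. Symbols give the median of each replicate pair and bars the middle 50% of loci, averaged over replicates. Medians climb from −1.90 on islands to −0.95 beyond 200 kb.

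Not every listed 5mC region met a 5hmC region. The 21119 5mC regions without one held 14.3% to 14.7% of the 5mC counts and were narrower, with a median of 600 bases against 800. They were also denser, at 8.12 ± 0.134 against 5.57 ± 0.0799 CPM per kb (SD, n = 3). Islands made up 2.31% of them and 2.37% of the paired ones, and gene bodies 48.6% and 47.8%. The 281066 5hmC regions without a listed 5mC region had a density of 2.22 CPM per kb, beside 2.24 for the paired ones. Absence from the 5mC list can mean that a region did not differ between the states.

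Chromosomes 17, 19 and 22 had the lowest mean medians, at −1.45 ± 0.083, −1.43 ± 0.0932 and −1.42 ± 0.0814, and chromosomes 18 and 4 the highest among the autosomes, at −1.13 ± 0.0865 and −1.14 ± 0.0589 (SD, n = 3). Per kb covered the difference of chromosome 18 from all loci turned from 0.11 to −0.02. Of the loci on chromosome 17, 58.8% lay in genes, and on chromosome 19 7.45% lay in islands, against 2.67% of all loci. Chromosome X (351 loci) was at −1.25, close to the median of all loci.

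No repeat annotation was used, so repeats were approached through position, extreme counts and gene families. Pericentromeric windows were taken as 1 Mb on either side of the widest stretch without a 5hmC region, on the 20 chromosomes where that stretch reached 1 Mb. On chromosome Y that stretch (28819401 to 58819400) is the long-arm heterochromatin and not the centromere, so its 24 window loci are not pericentromeric. The windows held 38.4% to 38.8% of all listed 5mC counts and 13.4% to 16.7% of the 5hmC counts in the differentiated libraries. These shares have unlike totals, since all paired loci held 85.3% to 85.7% of the 5mC and 39.6% to 45.1% of the 5hmC counts. The 642 window loci had a median ratio near that of all loci (−1.23, −1.22 and −1.10 in replicates 1, 2 and 3). Of them 36.9% were higher and 35.8% lower, beside 29.4% and 31.8% of all loci. Their spread was wide, from −3.18 at the 10th to 0.48 at the 90th percentile, where all loci ran from −2.61 to 0.13. Per kb covered their difference from all loci turned from 0.06 ± 0.0253 to −0.08. Without chromosome Y the windows held 618 loci, 37.9% to 38.4% of the 5mC and 12.7% to 15.9% of the 5hmC counts, and their difference from all loci was 0.01 ± 0.0284.

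Single loci reached very high counts. Of 52 loci with at least 1000 CPM in either mark, 24 lay in the windows, 3 of them on chromosome Y. Among the other 21, 5 had a mean log2 ratio under −3, 5 lay between −3 and −1, and 11 lay above −1. The locus with the most 5mC (chromosome 16, 46385801 to 46456600) held 115333, 114769 and 116294 CPM of 5mC and 7537, 8790.4 and 7988 CPM of 5hmC, a ratio of −3.84 ± 0.117. A locus on chromosome 10 (42596601 to 42602400) had the lowest ratio of the 21, with 36276, 36995 and 38102 CPM of 5mC and 1518, 1653 and 1699 CPM of 5hmC (−4.52 ± 0.0538). On the same chromosome the locus at 42354801 to 42397400 held 71415 ± 455 CPM of 5mC and 18673, 21411 and 17124 CPM of 5hmC, a ratio of −1.91 ± 0.171. At the opposite end, the locus on chromosome 1 at 142535401 to 142544400 held 3057, 3709 and 2745 CPM of 5hmC and 1489, 1519.8 and 1511 CPM of 5mC (1.06 ± 0.214). On chromosome 4 the locus at 49093201 to 49161000 was nearly even in CPM, with 43083, 49639 and 37994 CPM of 5hmC and 51792, 51182 and 51710.4 CPM of 5mC. These pericentromeric loci thus ranged from −4.52 to 1.06, and no SD among those described exceeded 0.214. Pericentromeric sequence is known to occur in many copies, the sources used here do not give how reads were placed among copies, and the values belong to the assembly's loci. Counts also scale with the number of copies of a sequence in the cells, which cancels in the ratio only where both marks come from the same copies.

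**Figure D3:**
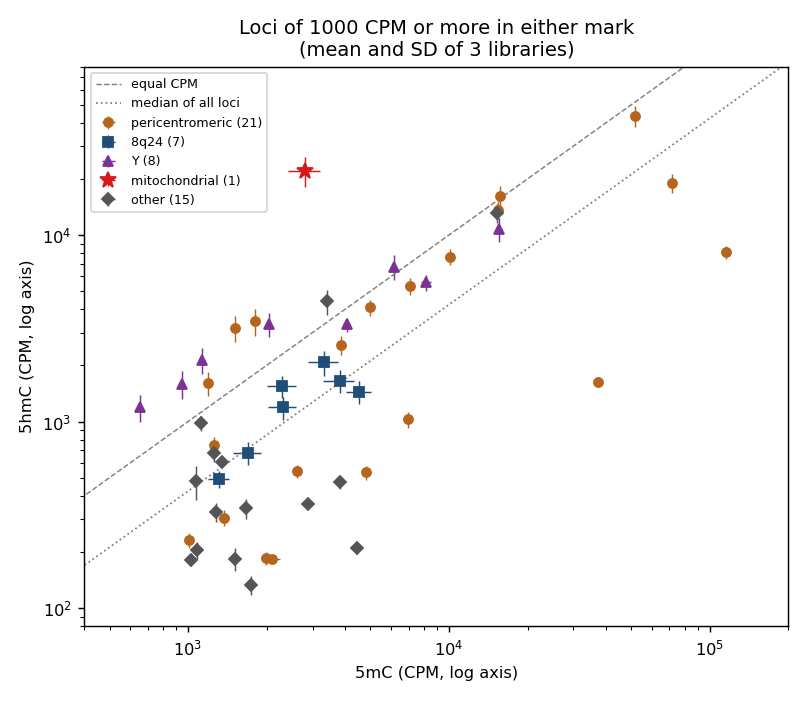
5hmC (y axis) against 5mC (x axis), both in CPM on log axes, for the 52 loci with at least 1000 CPM in either mark, as mean and SD of 3 libraries. The 21 pericentromeric loci, without chromosome Y, scatter from −4.52 to 1.06 in log2 ratio, the 7 loci of 8q24 lie between −1.65 and −0.57, and the mitochondrial locus lies at 2.96.

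The mitochondrial genome had the highest ratio of the named loci. Its 5hmC level was 26381, 18299 and 21623 CPM and its 5mC level 3257, 2477 and 2718 CPM in replicates 1, 2 and 3 (log2 ratio 2.96 ± 0.0706, and 4.24 above the median locus, SE 0.132, edgeR's adjusted p = 4.37e-33). It took up 1.83% to 2.64% of the 5hmC counts and 0.248% to 0.326% of the 5mC counts. Mitochondrial DNA is present in many copies per cell, and without an input library the part of unspecific capture was not tested. In undifferentiated cells the ratio was 2.94 ± 0.0614, within the spread of the differentiated replicates.

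Another 7 of the 52 loci lay on chromosome 8 between 126224401 and 130698200, in 8q24, the band of MYC, which is known to be amplified in HL-60. Their ratios ran from −1.65 to −0.57. The locus that holds MYC (chromosome 8, 128688801 to 128772200), the gene of a transcription factor of growth and proliferation, had 432, 507 and 537 CPM of 5hmC and 1178, 1382 and 1385 CPM of 5mC. Both marks were high, but their ratio of −1.42 ± 0.047 did not differ from the median locus at the threshold (−0.15 relative to it, adjusted p = 0.275). Of the 52 loci, 8 were placed on chromosome Y, with ratios between −0.55 and 0.91 (median 0.41). The 21 pericentromeric ones on other chromosomes covered this range too, from −4.52 to 1.06 (median −0.76). HL-60 is known as a line without a Y chromosome, and which sequences the reads placed there came from was not tested.

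At the level of genes, counts were summed over the paired loci in a gene body or within 5 kb upstream of a start. Of 10592 genes tested, 3475 were higher than the median gene (32.8%) and 3617 lower (34.1%). With counts offset by the bases each mark covered, 2883 were higher and 2987 lower. Without replicate 1, 2934 of 10597 were higher and 3078 lower, without replicate 2, 3408 of 10607 and 3537, and without replicate 3, 3072 of 10595 and 3224. With only loci of 1 region per mark, 3274 of 10148 were higher and 3391 lower, and in loci under 10 kb 3454 of 10552 and 3596. Against equal CPM of the marks instead of the median gene, 612 were higher and 9087 lower, and the medians of all 20 gene lists were negative, so every direction is relative to the median gene. The genes with the highest ratios, among those with a mean of at least 100 counts per library in each mark, had 5hmC levels of 40.1 to 194 CPM beside 12.1 to 40.8 CPM of 5mC. First came ART1, which encodes an ADP-ribosyltransferase (chromosome 11, 3669201 to 3678000), with 200, 195 and 187 CPM of 5hmC and 43.4, 36.9 and 42 CPM of 5mC in replicates 1, 2 and 3. Its ratio was 3.65 above that of the median gene in log2 units (SE 0.101, edgeR's adjusted p = 9.20e-23). Most of this lay in a single locus (chromosome 11, 3671801 to 3676200) with 191, 186 and 178 CPM of 5hmC. PRR5L, which encodes a partner of the mTORC2 kinase complex, had 61.5, 80.7 and 53.3 CPM of 5hmC and 16.9, 16.4 and 15.7 CPM of 5mC (3.39 above the median gene). The elastin gene ELN followed with 58.7, 79.5 and 48.3 CPM of 5hmC and 15.7, 17.8 and 18.4 CPM of 5mC (3.24). The 3 libraries of one mark did not overlap those of the other in CPM at any of these genes. They were chosen by their ratio, so this gap is no separate support. The other 7 were DDX11L1, a pseudogene at a chromosome end (3.23), C20orf26 (3.20), LOC100130691 (3.17), BTNL9, a butyrophilin-like gene (3.11), MAL, a gene of a membrane proteolipid (3.07), LOC100130954 (3.06) and FAT3, a gene of an atypical cadherin (3.06). None of these 10 genes had an island locus, where island loci made up only 2.67% of all paired loci. In 8 of the 10 genes 5hmC was the wider mark, and 5mC in 0. Offset by the covered bases, ART1 was at 3.04, PRR5L and ELN at 2.85 and DDX11L1 at 3.11, all still higher.

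The gene with the lowest ratio under the same minimum on the mean count was HFM1. HFM1, which encodes a helicase of meiosis, had 7.37, 7.61 and 10 CPM of 5hmC and 237, 254 and 257 CPM of 5mC within 1 locus of 1 kb (chromosome 1, 91852601 to 91853600). Its ratio was 3.47 under that of the median gene on the log2 scale (relative log2 ratio −3.47, SE 0.114, adjusted p = 4.48e-21). SENP5, the gene of a SUMO protease, had 200, 229 and 214 CPM of 5hmC and 4523, 4408 and 4429 CPM of 5mC (−2.97), almost all of it in 1.6 kb of chromosome 3 (196624601 to 196626200). That locus held 195, 224 and 209 CPM of 5hmC and 4511, 4397 and 4417 CPM of 5mC. PCNT, which encodes the centrosome protein pericentrin, had 6.9, 5.84 and 8.12 CPM of 5hmC and 135, 145 and 146 CPM of 5mC (−2.91), in a locus that holds an island. The microRNA genes MIR3648 and MIR3687 share 1 island locus on the short arm side of chromosome 21 (9825401 to 9828200), with 25, 23.3 and 34.4 CPM of 5hmC and 525, 571 and 564 CPM of 5mC (−2.91). Then followed the pseudogene FAM90A10P (−2.86), ZBED4, a zinc finger gene (−2.69), TMCO3 (−2.64), the pseudogene SDHAP1 (−2.42), PRPF6, a splicing factor gene (−2.38), and CNDP2, a dipeptidase gene (−2.35). Of these 10, 4 had an island locus, and 5mC was the wider mark in 9. The shares of all tested genes with an island locus or with a wider 5mC mark were not counted. Offset by covered bases all 10 remained lower, but ZBED4 (−0.91), SDHAP1 (−0.89), CNDP2 (−0.62), PRPF6 (−1.40) and TMCO3 (−1.73) by less. With only loci of 1 region per mark, SENP5 stood at 0.11 (adjusted p = 0.478). FAM90A10P and SDHAP1 belong to families of near-identical copies, and their reads may be split among copies. The HFM1 and SENP5 loci held mean 5mC levels of 249 CPM in 1 kb and 4442 CPM in 1.6 kb. The median of all paired loci was 5.55 CPM per kb. Whether the HFM1, SENP5 and MIR3648 loci hold sequence of many copies was not tested.

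**Figure D4:**
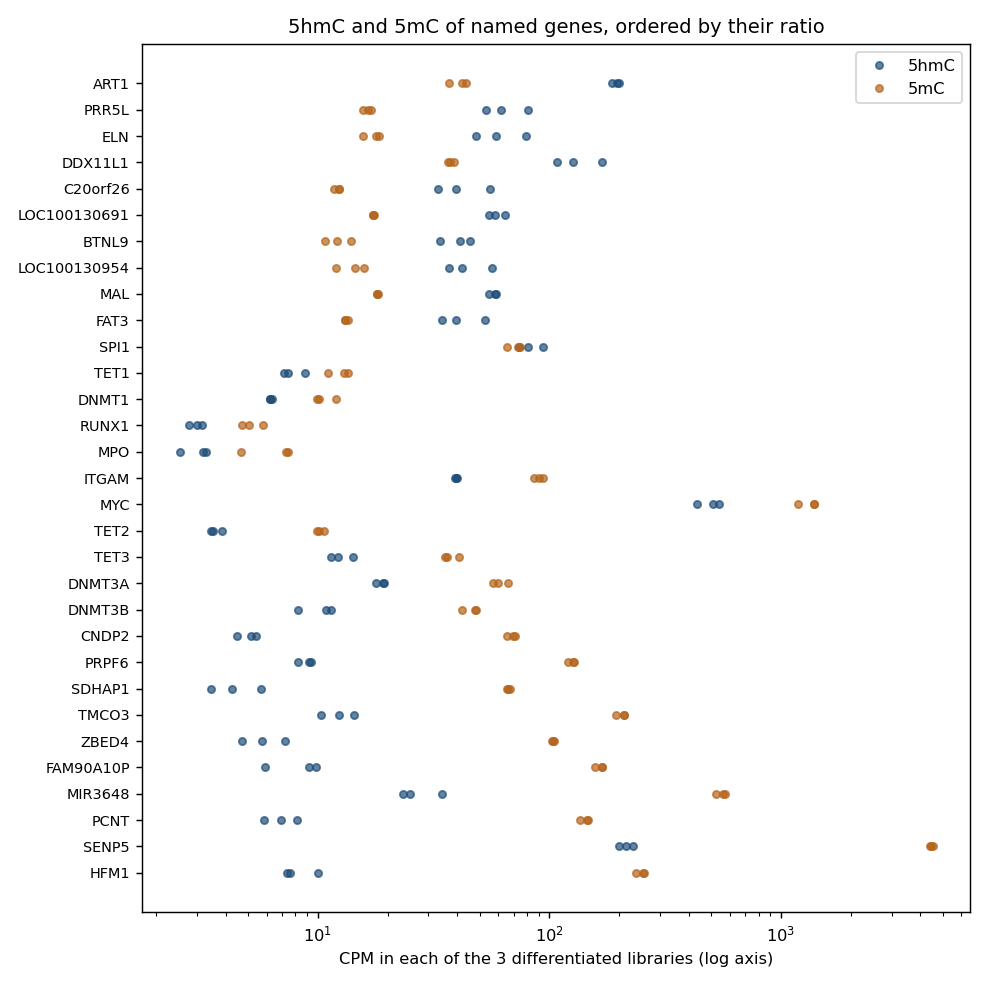
5hmC and 5mC in CPM (x axis, log scale) in each of the 3 differentiated libraries per mark, for the 10 genes with the highest ratios, the 10 with the lowest, and 11 genes of myeloid identity and DNA methylation. In CPM, 5hmC exceeds 5mC in the 10 highest genes and 5mC exceeds 5hmC in the 10 lowest, sets that were chosen by this ratio. SPI1 is the only gene of the plot where the libraries of the marks overlap in CPM.

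Among single loci, those at the ends of the range repeated some of these genes and added places outside genes. A locus on chromosome 2 (5162401 to 5164000), 458589 bases upstream of the nearest gene start, held 178, 230 and 156 CPM of 5hmC and 25.2, 23.3 and 29.1 CPM of 5mC. It lay 4.12 above the median locus (SE 0.153, adjusted p = 4.94e-30). A locus on chromosome 15 (102292201 to 102305200), which overlaps an island, had the lowest relative ratio of the loci with a mean of at least 100 counts in each mark. There 5hmC was 16.9, 10.1 and 14.7 CPM and 5mC 484, 491 and 518 CPM (−3.88, SE 0.151). RASA3, which encodes a GTPase-activating protein of Ras, had 4.42, 3.92 and 5.14 CPM of 5hmC and 123, 129 and 137 CPM of 5mC at an island locus in its body (chromosome 13, 114848801 to 114853600). Its relative ratio was −3.55. The 5 highest loci outside the mitochondrial genome lay 7999 to 649484 bases from an island. Of the 6 lowest, 2 overlapped an island and 4 lay 3812 to 29115 bases from one, and 2.67% of all paired loci lay in islands.

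Genes of the enzymes that write and remove the marks stood on both sides of the median gene. Of 19 tested genes for DNA methylation and its removal, 6 were higher and 9 lower (31.6% and 47.4%, beside 32.8% and 34.1% of all genes), with a median of −0.15, and with the offset 5 and 5 (0.02). TET1, which encodes an enzyme that oxidizes 5mC, had 7.43, 8.76 and 7.17 CPM of 5hmC and 12.9, 13.5 and 11.1 CPM of 5mC and was higher (0.70, SE 0.124, adjusted p = 9.22e-06). Offset by covered bases it was at 0.02 and no longer passed. TET2, often mutated in myeloid disease, was at −0.09 (adjusted p = 0.59) and TET3 at −0.15 (adjusted p = 0.209). Their signs turned with that offset, to 0.37 and 0.62, both past the threshold. DNMT1, the gene of the maintenance methyltransferase, had 6.32, 6.23 and 6.22 CPM of 5hmC and 12, 9.95 and 10.1 CPM of 5mC and was higher (0.63, adjusted p = 6.86e-05). The de novo methyltransferase genes DNMT3A (−0.29, adjusted p = 0.00789) and DNMT3B (−0.75, adjusted p = 4.06e-07) were lower. With the offset DNMT1 was at 0.38 and DNMT3B at −0.40. DNMT3A no longer passed without replicate 1 (−0.27) and turned to 0.14 with the offset, and to 0.35 (adjusted p = 0.00522) with 1 region per mark. UHRF1, whose product brings DNMT1 to replicated DNA, had 21.5, 17.1 and 23.7 CPM of 5hmC and 116, 114 and 108 CPM of 5mC (−1.02). TDG and SMUG1, genes of base excision glycosylases, were at 1.16 and 0.98. With the offset TDG (−0.11) turned sign, SMUG1 (0.28) lost its call, as it did without replicate 1 (0.72), and UHRF1 (−0.84) remained lower.

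Myeloid genes showed no common direction. SPI1, which encodes the myeloid master regulator PU.1, had 80.6, 93.8 and 73.6 CPM of 5hmC and 73.3, 65.5 and 74.7 CPM of 5mC. The marks of SPI1 thus overlapped in CPM, a scale on which equality has no meaning of its own. The SPI1 ratio was 1.61 above the median gene (SE 0.1, adjusted p = 2.81e-15), and 1.09 with the offset by covered bases. ITGAM, on whose product the cells were sorted, had 39.1, 39.8 and 39.4 CPM of 5hmC and 94.2, 89.8 and 86.1 CPM of 5mC over 5 loci. It stood at 0.21 (adjusted p = 0.0378), a call that ended in DESeq2's Wald test (0.23), without replicate 1 (0.24) or 3 (0.23) and with the offset (0.19). With 1 region per mark it turned to −0.79. MPO, the myeloperoxidase gene of primary granules, was at 0.31 (adjusted p = 0.127) and at −0.35 with the offset, with 3.27, 2.54 and 3.2 CPM of 5hmC and 7.29, 4.66 and 7.45 CPM of 5mC. RUNX1, a regulator of blood cell formation, was at 0.58 (adjusted p = 0.00429), lost without replicate 1 (0.48) and with the offset (0.13). CSF3R, CEBPE and CEBPA, genes of a growth factor receptor and of transcription factors of granulocytes, had no paired locus. No RNA was measured, so the maturity of the cells rests on the CD11b sort.

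Among 16 tested myeloid factor genes the ratio was higher at 8 and lower at 3 (50.0% and 18.8%, beside 32.8% and 34.1% of all genes, median 0.23). Without replicate 1 the counts were 4 and 1, without replicate 3 5 and 2, and with the offset 4 and 2 (median 0.04). Calls over all genes fell too, to 2934 and 3078 without replicate 1 and to 3072 and 3224 without replicate 3. ERG, an ETS factor gene, had 32, 40.6 and 28.7 CPM of 5hmC and 23.8, 23.2 and 28.2 CPM of 5mC (1.81). The retinoid receptor gene RXRA was at −0.57, and at 0.30 with the offset, and GFI1B at −0.94, lost with the offset (−0.07) and without replicate 1 (−0.72). Of 12 neutrophil maturation genes, 4 were higher and 3 lower (33.3% and 25%, median −0.01). NCF4, which encodes the p40 subunit of the phagocyte oxidase, had 22.9, 28.6 and 20.2 CPM of 5hmC and 11.3, 11.2 and 13.3 CPM of 5mC (2.38; 2.25 with the offset). The formyl peptide receptor gene FPR2 was at 1.98, NCF1, of another oxidase subunit, at −1.80, and ITGB2, whose product pairs with CD11b, at −1.38. With the offset these 3 turned to −0.26, 0.07 and 0.07, none past the threshold. NCF1 has near-identical pseudogenes, and its counts are uncertain for that reason. Of 12 primary granule and progenitor genes, 4 were higher and 2 lower (33.3% and 16.7%, median 0.09). With the offset 3 were higher and 4 lower (−0.19), and 1 was lower without replicate 1 or 3. BPI, a gene of a bactericidal granule protein, was at 2.49 and the stem cell factor receptor gene KIT at 1.34, while FLT3, a receptor kinase gene, was lower, with 1.32, 1.54 and 1.69 CPM of 5hmC and 7.71, 8.82 and 8.17 CPM of 5mC, and the progenitor factor gene MYB stood at −0.45. With the offset KIT was at 0.41 and FLT3 at −0.55. MYB lost its call in DESeq2's test (−0.46), with the replicate block (−0.45), and without replicate 1 (−0.35) or 3 (−0.52).

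Markers of other blood lineages also lay on both sides of the median gene. Of 18 lymphoid genes, 8 were higher and 6 lower (44.4% and 33.3%, beside 32.8% and 34.1% of all genes, median 0.23). With the offset 5 were higher and 3 lower (0.08). The B-cell kinase gene BLK (2.51) and FOXP3, a regulator of T cells (2.21), were higher, and BCL11B (−1.39) and ZAP70 (−1.37), genes of a T-cell factor and a T-cell kinase, lower. Of 9 erythroid and megakaryocyte genes, 2 were higher and 1 lower (22.2% and 11.1%, median −0.03), and without replicate 2 4 were lower. SLC4A1, the band 3 gene of red cells, had 26.5, 24.7 and 26.3 CPM of 5hmC and 24.8, 24.2 and 23.7 CPM of 5mC (1.50). With the offset BLK was at 1.16, BCL11B at −0.58 and SLC4A1 at 0.57.

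The lists that stood farthest from the median gene were those of gene clusters. Of 11 tested histone cluster genes, which encode the proteins of the nucleosome, 10 were lower and 1 higher (90.9% and 9.09%, beside 34.1% and 32.8% of all genes, median −1.66). They rest on 9 sets of loci. Besides HIST1H4F (−4.02) and HIST1H2AJ (−3.43), whose promoters are printed, HIST2H2AC was higher at 1.31. With the offset 8 were lower and 0 higher (median −1.07), and HIST1H4F stood at −1.07, HIST1H2AJ at −0.86 and HIST2H2AC at −0.13. Of 40 clustered protocadherin genes, which encode neuronal surface proteins and here share 15 sets of loci, 37 were lower (92.5%) and 0 higher (median −1.51). PCDHB7 had 1.63, 1.61 and 1.35 CPM of 5hmC in 0.4 kb and 22.5, 25.6 and 20.9 CPM of 5mC in 2.8 kb (−2.53). With the offset 4 protocadherin genes were lower and 3 higher (median −0.26), PCDHB7 was at 0.15 and PCDHB15 at 0.31. Of 9 HOX genes, whose products pattern the body axis and act in blood progenitors, 7 were lower and 2 higher (77.8% and 22.2%, median −1.38). With the offset 6 were lower and 1 higher (−0.79). HOXA7 had 1.21, 0.922 and 1.42 CPM of 5hmC and 16.7, 13.3 and 15.7 CPM of 5mC (−2.21), and HOXA5, which shares its locus with HOXA6 and HOXA-AS3, was at −1.51. With the offset they were at −0.53 and −0.79. HOXD3 (0.87) and HOXA4 (0.42) were higher. The call of HOXA4 ended without replicate 1 (0.43) or 2 (0.31) and with the offset (0.30). Other developmental transcription factor genes differed from HOX genes in their counts, with 11 of 21 higher and 6 lower (52.4% and 28.6%, median 0.48). With the offset 8 were higher and 4 lower (median 0.08). The difference between the HOX genes and these genes was not tested. EMX2, a forebrain factor gene, was at 2.71 with 3.69, 4 and 4.09 CPM of 5hmC and 1.56, 1.76 and 1.45 CPM of 5mC, TBX15 at 1.96, OTX1 at −1.73 and TBX3 at −1.63. OTX1 (−0.24) and TBX3 (−0.30) did not pass with the offset, and EMX2 was at 1.27.

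**Figure D5:**
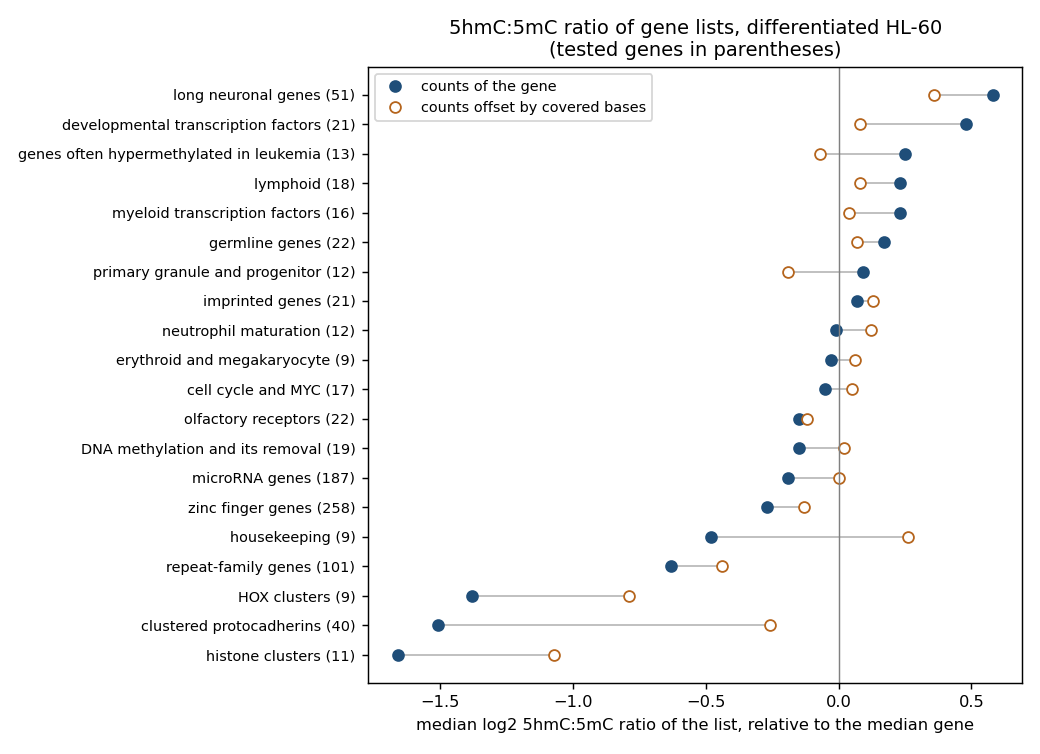
Median log2 5hmC:5mC ratio of each of the 20 gene lists relative to the median gene (x axis), from the counts (filled) and with counts offset by the bases each mark covers (open). Histone, protocadherin and HOX genes are at −1.66, −1.51 and −1.38 on counts, and protocadherins move to −0.26 with the offset, while long neuronal genes stay above 0.

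Long neuronal genes, which encode adhesion and synapse proteins of nerve cells and span large, island-poor stretches, were the list with the highest median. This rank did not hold throughout. The developmental transcription factor genes were above them without replicate 1 (0.57 against 0.54) and with 1 region per mark (0.51 against 0.47). Of 51 long neuronal genes tested, 35 were higher (68.6%) and 4 lower (7.84%), beside 32.8% and 34.1% of all genes. Their median was 0.58, and with the offset 30 were higher and 5 lower (0.36). RBFOX1, a splicing factor gene, had 238, 296 and 224 CPM of 5hmC and 191, 194 and 195 CPM of 5mC over 28 loci (1.79, SE 0.0987), and the netrin receptor gene UNC5C was at 1.86. The contactin genes CNTN4 (−1.01) and CNTN5 (−0.77) were lower. With the offset UNC5C was at 1.20 and CNTN4 at −0.61. Zinc finger genes, many of which encode repressors, had 59 of 258 higher (22.9%), 114 lower (44.2%) and a median of −0.27 (49, 102 and −0.13 with the offset). ZNF469 (2.66) and ZNF547 (2.50) were the highest, and ZNF781 (−3.17) and ZNF20 (−3.11) the lowest, the latter at −0.98 and −1.24 with the offset.

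Genes of repeated families were mostly low. Of 101 repeat-family genes and pseudogenes on 64 sets of loci, 25 were higher and 65 lower (24.8% and 64.4%, beside 32.8% and 34.1% of all genes, median −0.63). With the offset 24 were higher and 54 lower (−0.44). With 1 region per mark 40 of 76 tested were lower, and in loci under 10 kb 42 of 78. FAM90A7P had 1.37, 1.38 and 0.892 CPM of 5hmC and 47.7, 43.1 and 48.9 CPM of 5mC (−3.94). A locus shared by GAGE2D and 8 other GAGE genes, a cluster of cancer-testis antigens on chromosome X, was at −3.31. RNA5SP411, a 5S ribosomal pseudogene, was at 3.09 and NBPF1 at 2.58. With the offset FAM90A7P was at −0.55, GAGE2D at −1.71 and RNA5SP411 at 0.55. NBPF1 turned to −0.66 (adjusted p = 7.70e-07) with the offset, as its 5hmC regions covered 20.8 kb and its 5mC regions 2.4 kb. A cluster of USP17L deubiquitinase copies on chromosome 4 (9324601 to 9370800) held 125, 124 and 150 CPM of 5hmC and 1773, 1749 and 1710.4 CPM of 5mC. All these families have near-identical copies, so that single members are uncertain. Of 22 olfactory receptor genes, 4 were higher and 9 lower (18.2% and 40.9%, median −0.15). OR2T35 (1.36) and OR1F1 (0.95) lay above and OR2A9P and OR2A20P, which share loci, at −2.84 (−0.52 with the offset). With the offset 2 olfactory receptor genes were higher and 7 lower. Of 187 microRNA genes, 59 were higher and 82 lower (31.6% and 43.9%, median −0.19), and with the offset 55 were higher and 50 lower (median 0 within rounding). MIR4297 had the lowest ratio of all tested genes at −4.67, with 0.843, 0.461 and 0.677 CPM of 5hmC and 46, 46.8 and 45.6 CPM of 5mC at an island locus. There 5hmC covered 0.4 kb and 5mC 5.8 kb, and with the offset it was at −0.95. MIR1193 shares its locus with MIR494 and MIR543 in the imprinted cluster of chromosome 14 and was at −2.92, but at 0.04 with the offset. MIR4291 (2.82) and MIR3173, inside DICER1 (2.76), were the highest of the list.

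Imprinted genes, which carry methylation on 1 parental copy, were split, with 8 of 21 higher and 7 lower (38.1% and 33.3%, beside 32.8% and 34.1% of all genes, median 0.07). RTL1, a retrotransposon-derived gene, had 1.42, 1.77 and 2.03 CPM of 5hmC and 36.6, 36.9 and 30.6 CPM of 5mC (−2.87), and MEST was at −2.45, both at island loci. L3MBTL1 (1.64) and MEG8 (1.50) were higher. With the offset RTL1 was at −0.49, MEST at −1.58, L3MBTL1 at 0.52 and MEG8 at 0.79. Of 22 germline genes, 7 were higher and 6 lower (31.8% and 27.3%, median 0.17), with SPO11 (1.47) and HSF2BP (1.44) above and MOV10L1 (−1.63) and TEX101 (−1.01) below. MOV10L1 was at −0.02 and TEX101 at −0.56 with the offset. Of 13 genes often hypermethylated in leukemia, 6 were higher and 3 lower (46.2% and 23.1%, median 0.25). With the offset 3 were higher and 3 lower (−0.07), and without replicate 1 1 was lower. The p53 relative TP73 had 36.9, 40.7 and 36.5 CPM of 5hmC and 30.7, 30.2 and 31.5 CPM of 5mC (1.70), the kinase gene DAPK1 was at 1.40, and the repair gene MGMT (−0.76) and the cadherin gene CDH1 (−0.34) were lower. DAPK1 (−0.05) and MGMT (0.39) turned with the offset, and CDH1 lost its call without replicate 1 (−0.31). Of 17 cell cycle and MYC genes, 4 were higher and 7 lower (23.5% and 41.2%, median −0.05), and with the offset 4 and 4. The inhibitor genes CDKN2D (1.16) and CDKN1A (0.83) were higher, CCNE1, a cyclin gene, lower (−1.34), and MAX, the gene of the MYC partner, lower (−1.13; 0.15 with the offset). MYC itself stood at −0.01 (adjusted p = 0.906). Of 9 housekeeping genes, 3 were higher and 5 lower (33.3% and 55.6%, median −0.48), and the median turned to 0.26 with the offset. With 1 region per mark 1 of 8 was higher. HSPA8, a chaperone gene, had 0.579, 0.538 and 0.646 CPM of 5hmC and 11.4, 12.5 and 10.5 CPM of 5mC (−2.83; −1.37 with the offset).

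Against the undifferentiated cells, the class differences kept their signs. The difference between island loci and all loci was −0.66 ± 0.0628 in differentiated and −0.56 ± 0.0165 in undifferentiated pairs (SD, n = 3 each). It was thus −0.10 further from all loci after differentiation, with the pairs of the states not overlapping (exact two-sided permutation test, p = 0.10, the smallest that 3 against 3 allow, and 0.114 after adjustment over 8 classes). Without replicate 2 the island shift was −0.05, and per kb covered it was −0.06, where the pairs overlapped (exact permutation p = 0.30). Shores (−0.09), shelves (−0.06), promoters (−0.10) and gene bodies (−0.03) moved the same way, and intergenic loci by 0.03 the other way, each at that same smallest p. Pericentromeric windows differed by −0.01 (exact permutation p = 0.80). These are shifts of the state, and their test cannot pass a threshold of 0.05. Because the 5mC list was chosen on the difference between the states, this comparison is not independent of that choice. Loci listed with more 5mC in differentiated cells (15123) had a mean median ratio of −1.26 there and −1.23 in undifferentiated cells, and those listed with less (28867) had −1.24 and −1.43. For islands the shift was 0.08 in the former set alone. For promoters it was 0.03, also of opposite sign to that over all loci.

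For single genes few ratios passed a test of difference between the states, and a gene that did not pass was not shown to be equal in both. By the test of interaction between mark and state, 384 of 10608 genes passed (3.62%), 198 with a higher and 186 with a lower ratio in differentiated cells, and 1783 had an unadjusted p under 0.05. The count depended on single replicates. The higher and lower counts were 36 and 38 without differentiated replicate 1, 261 and 294 without 2, and 123 and 124 without 3. They were 46 and 32 without undifferentiated replicate 1, 33 and 37 without 2, and 56 and 72 without 3. DESeq2's Wald test gave 59 and 58. ZNF574, a zinc finger gene, had log2 ratios of 0.24, 0.25 and 0.13 in differentiated and −0.75, −0.53 and −0.52 in undifferentiated replicates, an interaction of 0.74 (SE 0.125, adjusted p = 0.00207). There 5mC was 21.2 ± 1.45 CPM in differentiated and 34.2 ± 1.77 in undifferentiated cells, and 5hmC 24.4 ± 1.55 and 22.5 ± 0.928, so the larger difference was in 5mC. RNF125, the gene of a ubiquitin ligase, showed the opposite, with ratios of −2.58, −2.48 and −2.66 against −2.05, −1.96 and −2.10 (−0.62, adjusted p = 0.00668, and 0.0522 without undifferentiated replicate 2). Its 5hmC was 7.62 ± 0.336 CPM in differentiated and 13 ± 0.368 in undifferentiated cells, and its 5mC 45.9 ± 3.76 and 53.7 ± 1.46. Of the genes always described, ITGAM (0.00, adjusted p = 0.994), MPO (−0.12, 0.858), SPI1 (0.11, 0.726) and MYC (0.12, 0.654) did not pass.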

How the data were processed

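Sheared DNA of HL-60 cells was captured with antibodies against 5mC and 5hmC and sequenced. The submitters' processing notes name BWA, SAMtools 0.1.18, bedtools 2.17.0, SICER 1.1, edgeR 2.11 and GRCh37/hg19. Those notes give no roles, and pooling of replicates for region calling is not stated. The deposited tables hold raw read counts per region and library, with distances to genes, starts and islands, per the file headers. The authors' log2 fold changes and log2 CPM, also deposited, were not used. The authors' deposited p-values served only to describe the 5mC list, whose largest is 0.0165 (adjusted 0.0826), and the authors' deposited fold direction only to divide that list. The 5mC table has 65535 regions. Of the 5hmC regions 18 with a blank cell were left out.

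Counts of overlapping regions were summed per locus, and over loci in a gene body or up to 5 kb upstream per gene. Ratios used CPM of the listed total with a pseudocount of 0.1 CPM. Genes and loci were tested with edgeR 4.0.16 (quasi-likelihood, filterByExpr, R 4.3.3) against the median gene or locus, with Benjamini-Hochberg adjustment at 0.05, over all features. DESeq2 1.42.0, TMM, no filter, a null at equal CPM, covered bases as offset, other overlap rules and leaving out each replicate were alternatives, and the parts of the 5mC list listed as higher or lower, and leaving out chromosome Y, were added after the data were seen. The code was tested on simulated data. There a true log2 ratio of 1 was recovered in 84% of changed genes and one of −1 in 53.1% (median estimate −0.89). Ratios of 2 and −2 were recovered in 100%, so lower ratios of moderate size were found less often than higher ones. Classes were compared between states with exact permutation tests over 3 against 3. Same-numbered libraries come from 1 divided DNA preparation per the labels' protocols, while the correlations of the marks' deviations from their group means were −0.00705 to 0.0202.

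Named genes were the 10 highest and 10 lowest past the threshold, on 1 side of the median in all 3 pairs and with a mean of at least 100 counts per library in each mark, the 6 highest and 6 lowest loci by the same rule, up to 2 on either side per gene list, and a fixed set of myeloid and DNA methylation genes. Some genes that this rule names are not reported here. Members and lists were chosen with earlier results of these data known. Gene names that spreadsheets turn into dates stood in 508 5hmC and 82 5mC regions. Genes can share loci, exons and introns were not told apart, and intervals of counting error are not given because captured fragments carry no molecular identifiers.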

Additional observations from a re-analysis of the deposited data

Results flagged for a closer look

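For 19 named genes the 5hmC:5mC ratio differed between differentiated and undifferentiated cells by the interaction of mark and state (edgeR's quasi-likelihood test, adjusted over all genes). The 5mC list was chosen on the difference between the states, so these differences are not independent of that choice.

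Among genes described for their ratio, it was higher in differentiated cells at EMX2 (interaction log2 1.34), OR2T35 (1.04), SENP5 (0.56) and SLC4A1 (0.44). It was lower at ZNF781 (−1.53), HSPA8 (−1.19), HIST1H4F (−1.08), MIR4297 (−0.89) and PRPF6 (−0.51). These genes were named for their ratio in the differentiated libraries, which also enter this test, so the differences are not independent of that choice. OR2T35 (edgeR's adjusted p = 0.0413) and MIR4297 (0.0454) lay near the threshold of 0.05. Leaving out single replicates is not reported for these genes. The other 10 genes were chosen for this difference. It was positive at LOC286297 (0.74), ZNF574 (0.74), TBC1D19 (0.73), LINC00152 (0.73) and NAV2 (0.72), and negative at FAM86DP (−0.73), FBXO36 (−0.68), STIL (−0.66), LOC643542 (−0.62) and RNF125 (−0.62). At NAV2 5hmC was 19.8 ± 2.76 CPM in differentiated and 15.1 ± 1.06 in undifferentiated cells, and 5mC 21.1 ± 2.92 and 28.1 ± 2.18 (SD, 3 libraries each). At FBXO36 5hmC was 7.55 ± 0.62 and 12.4 ± 1.29 CPM, and 5mC 46.2 ± 2.41 and 49.7 ± 2.77.

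Of these 10, only LOC286297, ZNF574 and NAV2 passed whichever single replicate was left out and in DESeq2's test. LOC286297 was summed over 3 loci of chromosome 9 between 42847201 and 67035600. They lie on both sides of the widest stretch without a 5hmC region (47310001 to 65604800), so the value belongs to no single place. TBC1D19 (DESeq2's adjusted p = 0.0684) was lost without differentiated replicate 1 or 3 or undifferentiated replicate 2 or 3, and LINC00152 (0.0684) without undifferentiated replicate 1, 2 or 3. LOC643542 (0.0845) was lost without differentiated replicate 1 or 2 or any undifferentiated replicate. FAM86DP was lost without undifferentiated replicate 1 or 2, FBXO36 and STIL without undifferentiated replicate 1, and RNF125 without undifferentiated replicate 2.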

How the results depend on the processing

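Against a null at equal CPM 612 genes were higher and 9087 lower, and 3382 loci were higher and 34749 lower. Of 15123 tested loci with 5mC listed as higher in differentiated cells, 6311 were higher and 6199 lower. Of 28741 tested loci with 5mC listed as lower, 6533 were higher and 7713 lower. A larger share was thus called in the former set, beside 12908 higher and 13950 lower of all 43864 tested loci. With the replicate block 3448 genes were higher and 3580 lower, loci 12841 and 13867, and interaction calls 169 and 162. Among named genes the block ended only the call of MYB (−0.45). For the interaction DESeq2 gave 59 and 58 calls and no shift of the null 338 and 120. Leaving out 1 replicate gave 33 to 261 higher and 32 to 294 lower.

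Class differences from all loci moved as follows. With a pseudocount of 1 CPM they were −0.76 for islands, −0.14 for shelves, 0.03 farther away, −0.06 for gene bodies, 0.07 for intergenic and 0.01 for pericentromeric loci, and with 0.01 CPM 0.10 for intergenic loci. Per kb covered they were −0.12 for islands, −0.16 for shores, −0.09 for shelves, 0.02 farther away, −0.15 for promoters, −0.05 for gene bodies, 0.06 for intergenic and −0.08 for pericentromeric loci. With 1 region per mark they were −0.22 for shores, −0.13 for shelves, 0.03 farther away, 0.09 for intergenic and 0.11 for pericentromeric loci. Farther away they were also 0.03 with 50% overlap and with loci under 10 kb. Without chromosome Y the difference of the pericentromeric windows was 0.01. With 5mC listed as higher they were −0.74 for islands, −0.19 for shores, 0.07 for shelves, 0.07 farther away, −0.45 for promoters, −0.20 for gene bodies, 0.21 for intergenic and −0.21 for pericentromeric loci. With 5mC listed as lower they were −0.40 for islands, −0.19 for shelves, 0.03 farther away, −0.22 for promoters, −0.05 for gene bodies, 0.07 for intergenic and 0.28 for pericentromeric loci.

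Shifts against undifferentiated cells moved too. With 1 CPM they were −0.16 for islands, −0.05 for shores, −0.04 for shelves, −0.01 for gene bodies and 0.01 for intergenic loci, and with 0.01 CPM 0.03 for intergenic loci. Per kb they were −0.05 for shores, −0.04 for shelves, −0.02 for gene bodies and 0.02 for intergenic loci. With 1 region per mark they were −0.04 for shelves and 0.03 for intergenic loci. With 5mC listed as higher they were 0.08 for islands, −0.0 for shores, −0.03 for shelves, −0.0 farther away, 0.03 for promoters, 0.01 for intergenic and 0.10 for pericentromeric loci. With 5mC listed as lower they were −0.07 for shelves, 0.01 farther away and 0.06 for pericentromeric loci. Without replicate 2 the promoter shift was −0.06 and the island shift −0.05, and the island shift per kb was −0.06 (exact permutation p = 0.30).

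Named genes turned sign as follows. With 1 region per mark SENP5 was at 0.11, ITGAM −0.79, DNMT3A 0.35 and PSMA1 −0.24. At equal CPM ITGAM was at −1.19, MPO −1.09, RUNX1 −0.82, TET1 −0.70, DNMT1 −0.78, KIT −0.06, HOXD3 −0.53, HOXA4 −0.98, TDG −0.25, SMUG1 −0.41, CDKN2D −0.25, CDKN1A −0.57, NCL −0.01, PSMA1 −0.15, DAPK1 −0.01, OR2T35 −0.04, OR1F1 −0.45 and HIST2H2AC −0.08. With covered bases as offset MPO was at −0.35, TET2 0.37, TET3 0.62, DNMT3A 0.14, FPR2 −0.26, NCF1 0.07, ITGB2 0.07, RXRA 0.30, TDG −0.11, MAX 0.15, DAPK1 −0.05, MGMT 0.39, NBPF1 −0.66, PCDHB7 0.15, PCDHB15 0.31, HIST2H2AC −0.13 and MIR1193 0.04. MYC was at 0.00 with TMM and DESeq2 and 0.01 without replicate 3. The offset left 76 named genes with their sign and side of the threshold, ended 22 calls, 11 of them with a turned sign, and turned 17 signs in all. Leaving out replicate 1 ended 8 calls, replicate 2 1 and replicate 3 2. The cause of these changes was not tested. The 5mC list holds only regions up to the authors' deposited p-value of 0.0165 and ends at 65535 regions. There is no input library, and genes with few counts carry the widest errors.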
